A study of Homo sapiens with 8 samples.

Results

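The cadherins and protocadherins were taken as the genes whose symbol is CDH followed by a number or begins with PCDH. This gave 89 of the 18787 gene symbols in the table. Of these, 36 lie outside the protocadherin clusters (23 cadherins and 13 protocadherins). The other 53 belong to the PCDHA, PCDHB and PCDHG clusters (15, 16 and 22 genes). The clustered genes are described apart, because the PCDHA and PCDHG entries overlap within their clusters. RNA was sequenced from T98 and U87, established human glioblastoma lines, with 4 groups of 2 libraries: T98 with control siRNA, T98 with LKB1 siRNA, U87 with control siRNA and U87 with LKB1 siRNA. LKB1, encoded by STK11, is a kinase that activates AMPK and related kinases. All 4 groups were transfected with Lipofectamine RNAiMAX and harvested 72 h later, so none shows cells without transfection. How many siRNAs were used against LKB1, and which sequences they target, is not stated in the labels. Each group had 1 library on sequencing lane 2, per the column headers, and the other on lane 4 (T98) or lane 5 (U87).

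Cadherins are membrane proteins whose extracellular repeats bind calcium and hold neighbouring cells together. The classical cadherins (types I and II) bind p120 catenin and beta-catenin through their cytoplasmic tails, and alpha-catenin links them to actin. CDH1 (E-cadherin) is typical of epithelia, and CDH2 (N-cadherin) of neural and mesenchymal cells, including many gliomas. Protocadherins have a related extracellular part and other cytoplasmic tails. In the PCDHA and PCDHG clusters, each gene has its own first exon and promoter and is spliced to constant exons shared by the whole cluster, whereas PCDHB genes have a single exon each. The choice among these promoters involves the DNA-binding protein CTCF, cohesin and DNA methylation.

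The promoters of the clustered genes share short sequences, which are shown because the genes that carry them differed widely in level. RefSeq promoters (GRCh38.p14, 250 bases before to 50 after the start) were matched by symbol for 70 of the 89 genes. The motifs were picked after these promoters had been looked at, and both strands were searched. The letters GGTGGCGCT were in 13 of 14 PCDHB entries and in 0.501% of the 35116 promoters of the table. ATGTCGCT was in 9 of 13 PCDHA entries against 0.234% of all promoters, and CGCTGT in 21 of 25 PCDHG entries against 11.2%. CGCT, which lies within all 3 motifs, was in 30 of 38 entries of the genes outside the clusters and in 70% of all promoters. Each line gives a gene, the GRCh38.p14 position (plus strand) and the sequence, 5′ to 3′, with the motif or its closest match in capitals.
PCDHB1, chr5:141051338-141051367: gctagcctttGGTGGTGCTgcagttagagg
PCDHB5, chr5:141135176-141135205: aaattaggacgcctGGTGGCGCTgcaggct
PCDHB7, chr5:141172567-141172596: caaaacgcaaGGTGGCGCTgctggctaaaa
PCDHB14, chr5:141223264-141223293: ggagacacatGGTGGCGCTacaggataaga
PCDHB16, chr5:141182311-141182340: gagaacgcgtGGTGGCGCTgcaggttaaga
PCDHA4, chr5:140806980-140807009: ggagccacatgATGTCGCTctttaccacaa
PCDHA9, chr5:140848288-140848317: tgggccacgtgATGTCACTctttgccgcga
PCDHGC3, chr5:141475884-141475913: gactctgtgtgcCGCTGTcggccaatgaag
PCDHGA9, chr5:141402718-141402747: gactctgagcgcCGCTGTtgatcaactcta
PCDHB1, which had 0 reads in every library, was the PCDHB entry without the exact motif. Counted from the first base of the motif, with the motif's base first, its closest match carries C6T. The closest match in PCDHA9 carries G6A. The motif began 66 bases before the start in PCDHB16, 67 in PCDHB7 and 69 in PCDHB14, but 16 in PCDHB5. A match is a description of letters and shows no binding.

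Between 25234334 and 38031734 whole reads were recovered from the deposited values of a library. STK11, the target, lay at 1999 and 2041 in the T98 control libraries and at 339.9 and 587.6 under LKB1 siRNA. In U87 STK11 lay at 2445 and 2041 against 360.7 and 384.6, so the groups did not overlap in either line. The mesenchymal markers VIM and CD44 were high in all 8 libraries (VIM 34020 to 292296, CD44 37284 to 63018). The astrocyte marker GFAP reached 8.602 in T98 and 50.67 in U87, and S100B and SOX2 were at 0 in T98 and at no more than 3.482 and 2.891 in U87. Of the other glial and progenitor markers, NES lay at 16.19 to 123.1 in T98 and 1361 to 2073 in U87, SOX9 at 1245 to 3086 and 427.6 to 1003, and OLIG2 at 25.53 to 70.37 and 31.76 to 67.88. The 7 epithelial markers summed to 2635 to 4308 in T98 and 379 to 444 in U87. Most of the T98 sum was KRT18 (2190 to 3844, and 29.57 to 71.14 in U87). KRT8 was higher in T98 too (300.7 to 390.9 against 122.2 to 174.9). EPCAM, a defining marker, lay at 55.73 to 63.33 in U87 against 2.37 to 9.525 in T98. CLDN7 (56.19 to 170 against 0.0544 to 8.629) and ESRP1 (4.404 to 13.76 against 0.02777 to 3.838) were also higher in U87. KRT19 and CLDN4 overlapped between the lines. The 6 endothelial markers summed to 110 to 264 in T98 and 259 to 377 in U87. Libraries of the same group differed by lane. Among all genes, 14% to 16.6% differed more than 2-fold between the lanes of a group, and among the 22 members outside the clusters that were tested, 14, 13, 13 and 10 did (T98 control, T98 LKB1, U87 control, U87 LKB1). Each comparison is therefore given in each lane.

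Values are the deposited normalised values, in which reads are scaled to a common library size. Where 2 values are given for a group, lane 2 comes first. Differences are on the log2(value + 1) scale, which understates the change of low genes. Genes with a value of at least 10 in at least 2 libraries were tested with limma-trend, and a second fit added a lane term for each line (the lane-term fit). The adjusted p is over all 14282 genes tested, with a threshold of 0.05. If the duplicates are technical, which the labels leave unsaid, a p-value speaks only of the spread between these 8 samples.

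Of the 36 genes outside the clusters, 22 were tested. The other 14 did not reach the filter, and 10 of these had under 10 reads in their highest library. They were PCDH8, PCDH11X, PCDH11Y, PCDH19, CDH8, CDH9, CDH10, CDH19, CDH20 and CDH26. The remaining 4 were CDH1, PCDH15, CDH16 and CDH17, which encode the epithelial cadherin, a hair-cell tip-link protein and the kidney and liver-intestine cadherins. CDH1 lay at 1.093 and 2.864 in the T98 control libraries and at 4.573 and 4.65 under LKB1 siRNA. In U87 CDH1 lay at 6.312 and 3.795 with control siRNA and at 8.519 and 24.85 under LKB1 siRNA, the highest value resting on 29 reads. CDH1 was near the limit of detection in both lines and was given no test.

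Per kb of transcript, the leading members differed between the lines. In T98 control cells the highest mean was that of CDH11 (1127 per kb, libraries 1100 to 1154). CDH6 (716.9 per kb, 475.3 to 958.6), PCDH18 (658.2 per kb, 263.6 to 1053) and CDH2 (502.1 per kb, 141.8 to 862.3) followed, and these 3 ranges overlapped. CDH13 (189.9 per kb, 54.54 to 325.2) and CDH24 (165.9 per kb, 150 to 181.8) also overlapped each other. In U87 control cells CDH13 led at 2571 per kb (2188 to 2954), followed without overlap by CDH2 (508.1 per kb, 490.7 to 525.6), CDH24 (186.8 per kb, 182 to 191.6) and CDH11 (108.4 per kb, 69.85 to 147). PCDH7 (65.63 per kb, 64.25 to 67.02) and PCDH9 (63.67 per kb, 41.7 to 85.65) came next, with overlapping ranges.

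**Figure D1:**
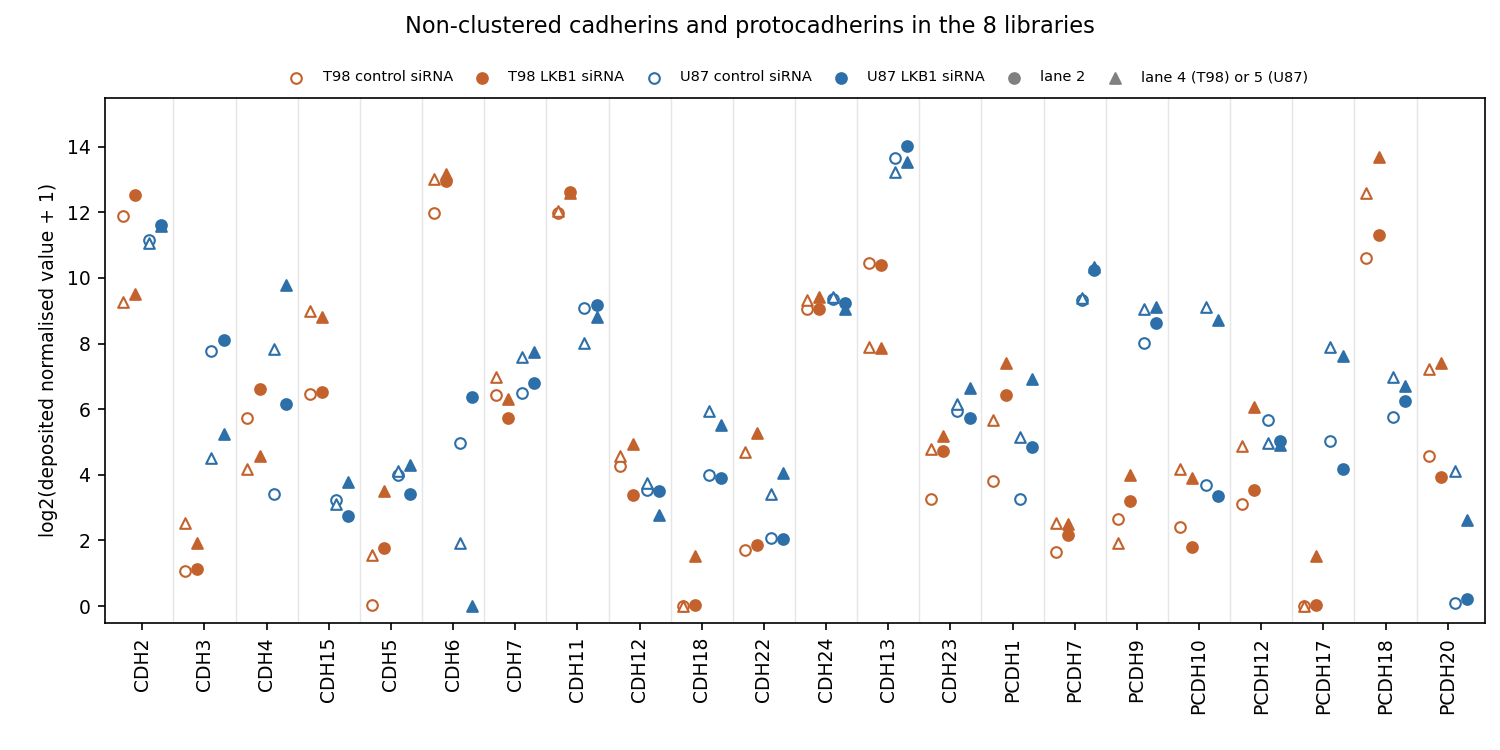
Each point is 1 library, with log2(deposited normalised value + 1) on the y axis for the 22 tested members outside the clusters. Open symbols are control siRNA, filled symbols LKB1 siRNA, circles lane 2 and triangles lane 4 (T98, orange) or lane 5 (U87, blue); PCDH7 and PCDH9 separate the lines, whereas CDH2 and CDH13 in T98 and CDH3 and PCDH10 in U87 separate by lane.

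The question of how T98 and U87 differ before the knockdown was answered in the control siRNA libraries. T98 had more CDH6, PCDH18, CDH15 and CDH11, and U87 more PCDH7, PCDH17, PCDH9, CDH18, CDH3, CDH13, CDH5 and CDH23. With limma-trend these 12 of 22 members outside the clusters passed (4 higher and 8 lower in T98). Among all genes 37.7% passed (18.3% higher, 19.5% lower). The median difference (T98 minus U87) of the 22 was −0.61, and −0.01 over all genes. Fewer cells of a type and less RNA per cell cannot be told apart in bulk RNA.

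Of the type I classical cadherins, CDH15 and CDH3 passed in opposite directions. CDH15 (M-cadherin, NM_004933, hg19 chr16:89238162-89261900), best known from skeletal muscle, lay at 87.67 and 506.3 in T98 and at 8.443 and 7.627 in U87. Both T98 libraries were above both U87 libraries, and the T98 pair lay far apart. The CDH15 difference was 4.55 (SE 1.00, adjusted p = 0.0105), 3.23 in lane 2 and 5.88 between the other lanes. The CDH15 call was lost without the T98 control library on lane 4 (highest adjusted p 0.0548 over the 8 libraries left out in turn). CDH3 (P-cadherin, NM_001793, hg19 chr16:68678150-68732957), an epithelial cadherin, lay at 1.112 and 4.782 in T98 and at 219.3 and 21.77 in U87. The groups did not overlap, and U87 lane 2 was the high library. The CDH3 difference was −4.34 (SE 1.30, adjusted p = 0.0338), −6.70 in lane 2 and −1.98 between the other lanes. That call was lost without either T98 control library or U87 control lane 2 (highest adjusted p 0.186).

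CDH2 and CDH4 (R-cadherin) changed sides with the lane. CDH2 (NM_001792, hg19 chr18:25530929-25757445) lay at 3780 and 621.6 in T98 control cells and at 2304 and 2151 in U87 control cells. The T98 libraries enclosed those of U87. The CDH2 difference was −0.54 (SE 1.04, adjusted p = 0.709) with limma-trend, 0.71 in lane 2 and −1.79 between the other lanes. CDH4 (NM_001794, hg19 chr20:59827481-60515673), a neural and retinal cadherin, lay at 52.05 and 16.97 in T98 and at 9.721 and 229.4 in U87. Here the U87 libraries enclosed those of T98, and the CDH4 difference was 2.31 in lane 2 and −3.68 between the other lanes (limma-trend adjusted p = 0.767).

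Among the type II cadherins, CDH6 and CDH11 were the high genes of T98. CDH6 (K-cadherin, NM_004932, hg19 chr5:31193761-31329253), found in kidney and in neural crest, lay at 4080 and 8227 in T98 control cells. In U87 CDH6 lay at 30.42 and 2.754, the latter from 3 reads. The groups were far apart, with a difference of 9.06 (SE 1.85, adjusted p = 0.00803), 7.02 in lane 2 and 11.10 between the other lanes. CDH11 (OB-cadherin, NM_001797, hg19 chr16:64980682-65155919), a mesenchymal and osteoblast cadherin, lay at 4027 and 4226 in T98 and at 538.3 and 255.7 in U87. The CDH11 difference was 3.47 (SE 0.33, adjusted p = 0.000302), or 11.1-fold. The lanes gave 2.90 and 4.04. Both the CDH6 and the CDH11 call held without any 1 of the 8 libraries.

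CDH18 and CDH5 were the type II cadherins with more RNA in U87. CDH18 (cadherin-14, NM_004934, hg19 chr5:19473154-19988353), a neuronal cadherin, had 0 reads in both T98 control libraries, which allows up to 3 reads over the group. U87 CDH18 lay at 14.94 and 61.25, from 78 reads. Against that floor U87 was at least 26.1-fold higher (limma-trend adjusted p = 0.00753). CDH5 (VE-cadherin, NM_001795, hg19 chr16:66400524-66438689), the cadherin of endothelial junctions, lay at 0.01477 and 1.917 in T98 and at 14.79 and 16.23 in U87. The groups did not overlap, although the T98 values came from 0 and 2 reads. The CDH5 difference was −3.26 (SE 0.89, adjusted p = 0.0246), and the call was lost without T98 control lane 2 or either U87 control library (highest adjusted p 0.128). The endothelial markers PECAM1 and TIE1 were higher in U87 too (PECAM1 0.06924 to 9.572 in T98 and 10.47 to 28.88 in U87, TIE1 2.765 to 8.501 and 19.98 to 62.12). ESAM went the other way (20.85 to 28.74 in T98, 1.886 to 5.207 in U87). Of the 5 endothelial markers tested with limma-trend, 1 was higher in T98 (ESAM) and 1 lower (TIE1), and PECAM1 did not pass. The relation of these markers to the CDH5 result was not tested. CDH24 (NM_144985, hg19 chr14:23516269-23526747) was nearly level in all 8 libraries, at 531.3 to 683.5, with a difference of −0.18 (SE 0.24, adjusted p = 0.58). The other tested type II cadherins, CDH7, CDH12 and CDH22, passed in neither fit.

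The 2 tested cadherins outside types I and II were both lower in T98. CDH13 (T-cadherin, NM_001220489, hg19 chr16:82660398-83830215) is held in the membrane by a lipid anchor and lacks a cytoplasmic tail. CDH13 lay at 1414 and 237.1 in T98 control cells and at 12843 and 9512 in U87 control cells. All U87 values were above all T98 values, and within T98 the lane 4 libraries were the low ones. The CDH13 difference was −4.25 (SE 0.95, adjusted p = 0.0115), or 19-fold, with −3.18 in lane 2 and −5.32 between the other lanes. The call was lost without U87 control lane 2 or T98 control lane 4 (highest adjusted p 0.0539). CDH23 (NM_022124, hg19 chr10:73156690-73575704), a tip-link cadherin of hair cells, lay at 8.651 and 26.69 in T98 and at 60.21 and 70.66 in U87. The CDH23 difference was −2.02 (SE 0.63, adjusted p = 0.0384), and leaving out any of 5 libraries ended the call: T98 control lane 2, either U87 control library or either T98 LKB1 library (highest adjusted p 0.193). C10orf105 and C10orf54 overlap CDH23 on the opposite strand, and the reads of this library kit carry no strand, so those reads cannot be told apart.

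The protocadherins outside the clusters showed 1 gene of T98 and 3 of U87. PCDH18 (NM_019035, hg19 chr4:138440073-138453629) lay at 1558 and 6220 in T98 and at 52.92 and 125.2 in U87. Its groups were well separated, with a difference of 5.24 (SE 0.89, adjusted p = 0.0037), 4.85 in lane 2 and 5.62 between the other lanes. PCDH18 is one of the delta-2 protocadherins, which are brain-expressed and can bind the actin-regulating WAVE complex through their tails. PCDH7 (BH-protocadherin, NM_032457, hg19 chr4:30722029-31148423), a delta-1 protocadherin, lay at 2.168 and 4.769 in T98 and at 638.7 and 666.3 in U87. The PCDH7 difference was −7.26 (SE 0.43, adjusted p = 6.39e-05), or 153-fold, with close values in the lanes (−7.66 and −6.85). PCDH9 (NM_203487, hg19 chr13:66876965-67804468), also of the delta-1 kind, lay at 5.302 and 2.822 in T98 and at 259.8 and 533.8 in U87. The PCDH9 difference was −6.25 (SE 0.55, adjusted p = 0.000214). PCDH17 (NM_001040429, hg19 chr13:58205788-58303065), a delta-2 protocadherin of synapses, had 0 reads in both T98 control libraries, and U87 lay at 31.89 and 235.1 from 276 reads. Against 3 reads over the T98 group, PCDH17 was at least 92.3-fold higher in U87 (limma-trend adjusted p = 0.00849). All 4 calls held without any 1 library.

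The other 4 did not pass with limma-trend. PCDH10 (OL-protocadherin, NM_032961, hg19 chr4:134070469-134112732) lay at 4.371 and 17.18 in T98 and at 11.84 and 557.8 in U87, so that a single U87 control library was high. The same lane was high under LKB1 siRNA, where PCDH10 lay at 9.22 and 421.3. PCDH20 (NM_022843, hg19 chr13:61983818-61989655) lay at 22.63 and 149.3 in T98 and at 0.07243 and 16.35 in U87. PCDH12 (NM_016580, hg19 chr5:141324529-141338627), an endothelial and trophoblast protocadherin, lay at 7.598 and 28.6 in T98 and at 49.55 and 30.49 in U87. PCDH1 (NM_002587, hg19 chr5:141232672-141257944), which is found in airway epithelium, lay at 12.96 and 50.47 in T98 and at 8.573 and 34.49 in U87. Each of these genes differed several-fold between the lanes of at least 1 line.

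Of the 22, 7 were higher in T98 in both pairs of lanes and 12 lower in both, beside 40.4% and 40.3% of all genes. The lane-term fit compares T98 with U87 on lane 2, and there 17 of the 22 passed (7 higher and 10 lower in T98), beside 63.3% of all genes (30.7% higher, 32.6% lower). CDH2 then was higher in T98 by 0.84 (SE 0.17, adjusted p = 0.0036), and CDH4 by 2.22 (SE 0.36, adjusted p = 0.00111), opposite to their values between the other lanes. PCDH20 was higher in T98 by 3.86 (adjusted p = 0.000975), and PCDH12 and PCDH10 were lower, at −2.60 (adjusted p = 0.00118) and −1.36 (adjusted p = 0.0162). These 5 differences are at the level of lane 2, which the fit estimates from all libraries of a line. Between the control libraries of the other lanes PCDH20 was also higher in T98 (149.3 against 16.35). PCDH10 was also lower there (17.18 against 557.8), and PCDH12 was nearly level (28.6 against 30.49). Without U87 control lane 2 none of the 5 passed (adjusted p up to 0.141), and PCDH10 also failed without either U87 library of lane 5.

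**Figure D2:**
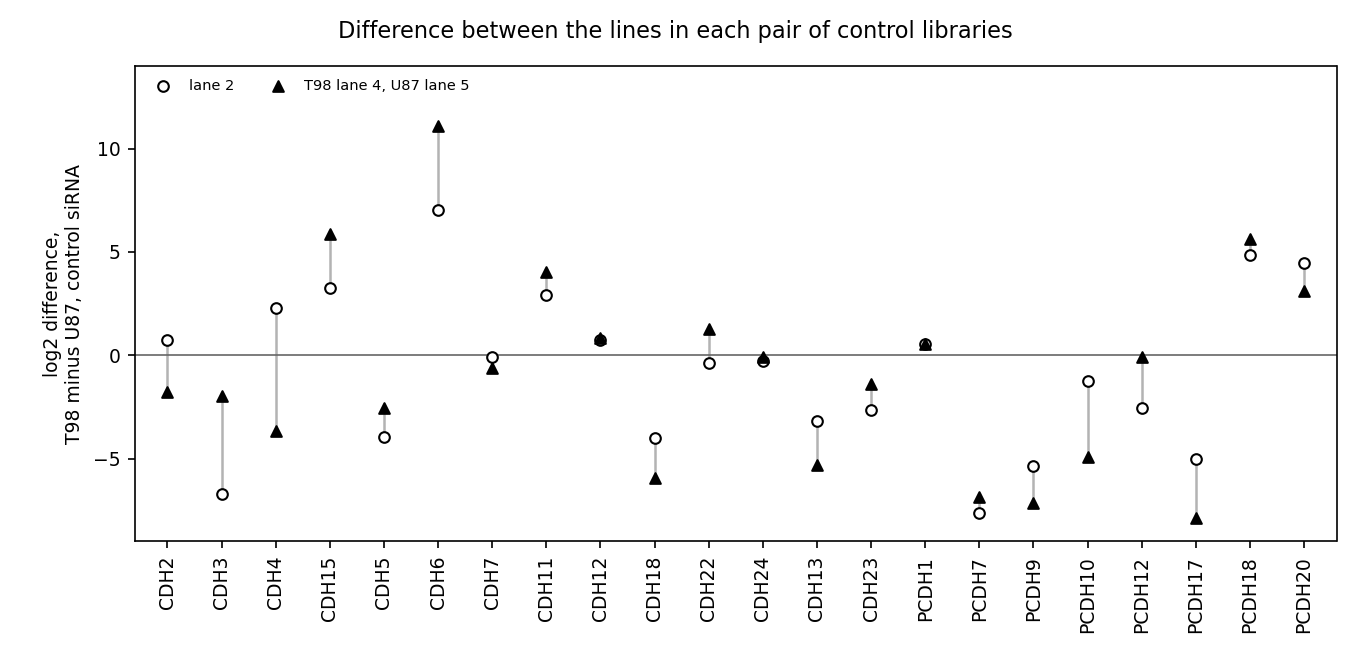
The y axis is the log2 difference between the control siRNA libraries, T98 minus U87, on the log2(value + 1) scale, for each tested member outside the clusters. Circles compare the lane 2 libraries and triangles the libraries of lane 4 (T98) and lane 5 (U87); CDH2 (0.71 and −1.79) and CDH4 (2.31 and −3.68) lie on both sides of 0, while PCDH7 (−7.66 and −6.85) is alike in both.

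The comparison of LKB1 with control siRNA asks which of these genes follow the loss of LKB1 in each line. PCDH1 and CDH4 were higher under LKB1 siRNA in both lanes of both lines, as were CDH2, CDH11 and PCDH9. In U87 lane 5 PCDH9 went only from 533.8 to 550.8. Among all genes 38.2% were higher in both lanes of T98 and 35.5% in both lanes of U87. The share of all genes higher in both lanes of both lines was not counted, so these members are not set against it. PCDH18 and CDH5 were higher in both lanes of T98. No member passed with limma-trend, which counts the lane difference as noise, in either line. Only 0.028% of all genes did so in T98 and 0.056% in U87, and 10.5% and 8.88% had an unadjusted p under 0.05. With the lane term, 3 of 22 members outside the clusters passed in T98, all higher, and 2 in U87, both higher. Among all genes 15.8% passed in T98 (8.48% higher, 7.33% lower) and 11.2% in U87 (5.29% higher, 5.91% lower), so the members' counts were close to the background. The edgeR test with a lane term called 3 of the 22 in each line, beside 18.4% of all genes in T98 and 14% in U87. The 5 listed neuronal markers summed to 3731 and 3844 with control and to 9573 and 5737 with LKB1 siRNA in T98. In U87 the sums were 7884 and 5985 against 10292 and 9561. Most of each sum was TUBB3, a neuronal tubulin. TUBB3 lay at 3640 and 3546 against 9119 and 4830 in T98, and at 6982 and 5273 against 7776 and 7181 in U87. SNAP25, a synaptic fusion protein, lay at 85.49 and 287.9 against 439.1 and 897.6 in T98, and at 778 and 576.5 against 2386 and 2226 in U87. SNAP25 passed in both lines in the lane-term fit (adjusted p = 0.00338 and 0.00318) and TUBB3 in T98 (adjusted p = 0.0289). SYT1 passed in neither line and had no common direction in T98 (4.286 and 5.705 against 7.85 and 2.732). RBFOX3 and STMN2 were too low to test (at most 7.635 and 2.891). RBFOX3 was higher under LKB1 siRNA in both lanes of T98 (1.103 and 3.823 against 5.73 and 6.52). In U87 RBFOX3 was lower in both lanes (7.397 and 7.635 against 2.611 and 1.655). With limma-trend none of the 5 neuronal markers passed. Their part in the results for the cadherins and protocadherins was not tested.

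PCDH1 lay at 12.96 and 50.47 with control siRNA in T98 and at 85.77 and 169.6 with LKB1 siRNA. In U87 PCDH1 lay at 8.573 and 34.49 with control and at 27.57 and 120.1 with LKB1 siRNA. The T98 groups did not overlap, but the U87 groups did, because the lane 5 control was above the lane 2 knockdown. Within lanes the PCDH1 difference was 2.64 and 1.73 in T98 and 1.58 and 1.77 in U87. In the lane-term fit PCDH1 rose 4.54-fold in T98 (2.18, SE 0.32, adjusted p = 0.00863) and 3.19-fold in U87 (1.67, SE 0.32, adjusted p = 0.0164). With limma-trend PCDH1 did not pass (SE 0.99, adjusted p = 0.496 in T98 and 0.804 in U87). The T98 call was lost without either T98 library of lane 2 or any U87 library (adjusted p up to 0.126), and the U87 call without any U87 library (adjusted p up to 0.417). The difference between the lines was 0.51 (SE 0.45, adjusted p = 0.611 in the lane-term fit).

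CDH4 lay at 9.721 and 229.4 with control siRNA in U87 and at 70.34 and 883.8 with LKB1 siRNA. The lanes differed more than the siRNAs did, and within each lane the knockdown was higher, by 2.73 and 1.94. In the lane-term fit CDH4 rose 5.06-fold in U87 (2.34, SE 0.29, adjusted p = 0.00396), and with limma-trend it did not pass (SE 1.65, adjusted p = 0.882). Leaving out a U87 library, whichever of the 4, ended that call (adjusted p up to 0.383). In T98 CDH4 lay at 52.05 and 16.97 with control and at 96.34 and 23.06 with LKB1 siRNA, a difference of 0.65 (SE 0.29, adjusted p = 0.159 in the lane-term fit). The difference of the 2 effects was −1.69 (SE 0.41) and did not pass (adjusted p = 0.13).

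PCDH18 lay at 1558 and 6220 with control siRNA in T98 and at 2519 and 13254 with LKB1 siRNA. The groups overlapped, and within lanes the difference was 0.69 and 1.09. In the lane-term fit PCDH18 rose 1.86-fold (0.89, SE 0.21, adjusted p = 0.0316), and with limma-trend it did not pass (SE 0.89, adjusted p = 0.793). In U87 PCDH18 lay at 52.92 and 125.2 against 74.58 and 103.5, with no common direction. CDH5 in T98 lay at 0.01477 and 1.917 with control siRNA and at 2.447 and 10.33 with LKB1 siRNA. These CDH5 values came from 0 and 2 reads against 2 and 11 reads. The lane-term difference was 1.86 (SE 0.46, adjusted p = 0.0372), which rests on those few reads and is given without a fold. The summed endothelial markers of T98 lay at 110 to 264 with control and at 113 to 256 with LKB1 siRNA. In U87 CDH5 lay at 14.79 and 16.23 against 9.655 and 18.8. Neither T98 call held without any 1 library (adjusted p up to 0.136 for PCDH18 and 0.167 for CDH5).

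None of the most abundant members other than PCDH18 passed in either fit. CDH2 was higher under LKB1 siRNA in all 4 pairs of libraries, at 5888 and 724.9 in T98 and at 3124 and 3094 in U87. The CDH2 difference was 0.43 in T98 (SE 0.14, adjusted p = 0.0735 in the lane-term fit) and 0.48 in U87 (SE 0.14, adjusted p = 0.0682), with lanes of 0.64 and 0.22, and of 0.44 and 0.52. CDH11 lay at 6332 and 6227 under LKB1 siRNA in T98, above both control libraries, with a difference of 0.61 (SE 0.18, adjusted p = 0.0572). In U87 CDH11 lay at 576.4 and 449.7, a difference of 0.46 (adjusted p = 0.149). CDH6 lay at 7893 and 9176 under LKB1 siRNA in T98, with lane differences of 0.95 and 0.16 (adjusted p = 0.577). In U87 CDH6 lay at 81.47 and 0 under LKB1 siRNA. CDH13 lay at 1336 and 233.4 in T98 under LKB1 siRNA, a difference of −0.05 (adjusted p = 0.78). In U87 CDH13 lay at 16703 and 11943, a difference of 0.35 (adjusted p = 0.0941). CDH24 differed by 0.03 (adjusted p = 0.905) and −0.24 (adjusted p = 0.348) in T98 and U87.

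Of the other named genes, PCDH7 came nearest to the threshold in U87, and PCDH9 in T98. PCDH7 in U87 lay at 1206 and 1295 under LKB1 siRNA, above both control libraries, and the lanes gave 0.92 and 0.96. The PCDH7 difference was 0.94 (SE 0.26, adjusted p = 0.0578 in the lane-term fit), and in T98 PCDH7 stayed under 5 in every library. PCDH9 in T98 lay at 8.114 and 14.96 under LKB1 siRNA, a difference of 1.30 (SE 0.39, adjusted p = 0.0591), and in U87 at 392.8 and 550.8, a difference of 0.32 (adjusted p = 0.642). CDH3, CDH15, CDH18, CDH23, PCDH10, PCDH12, PCDH17 and PCDH20 passed in neither line, with differences of −0.68 to 0.92 and lane-term adjusted p from 0.114 to 0.923.

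Across the 22 genes the median difference was 0.49 in T98, or 0.40 over the 20 without the 2 genes at 0 reads in the T98 controls. All genes had a median of 0.02. In U87 the median of the 22 was 0.12, and that of all genes was −0.0018. Without those 2 genes, 11 of 20 were higher in both lanes of T98 and 3 lower in both, beside 38.2% and 34.6% of all genes. In U87 the counts were 9 and 6 of 22, beside 35.5% and 37.5%. The difference of the knockdown effect between the lines passed for no member with limma-trend or in the lane-term fit (0% and 0.476% of all genes passed, and 2.57% and 14.8% had an unadjusted p under 0.05). Among the 5 calls of the lane-term fit, this difference was 0.51 for PCDH1, −1.69 for CDH4, 0.78 for PCDH18 (adjusted p = 0.287) and 2.04 for CDH5 (adjusted p = 0.231), where PCDH1 counts in both lines.

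**Figure D3:**
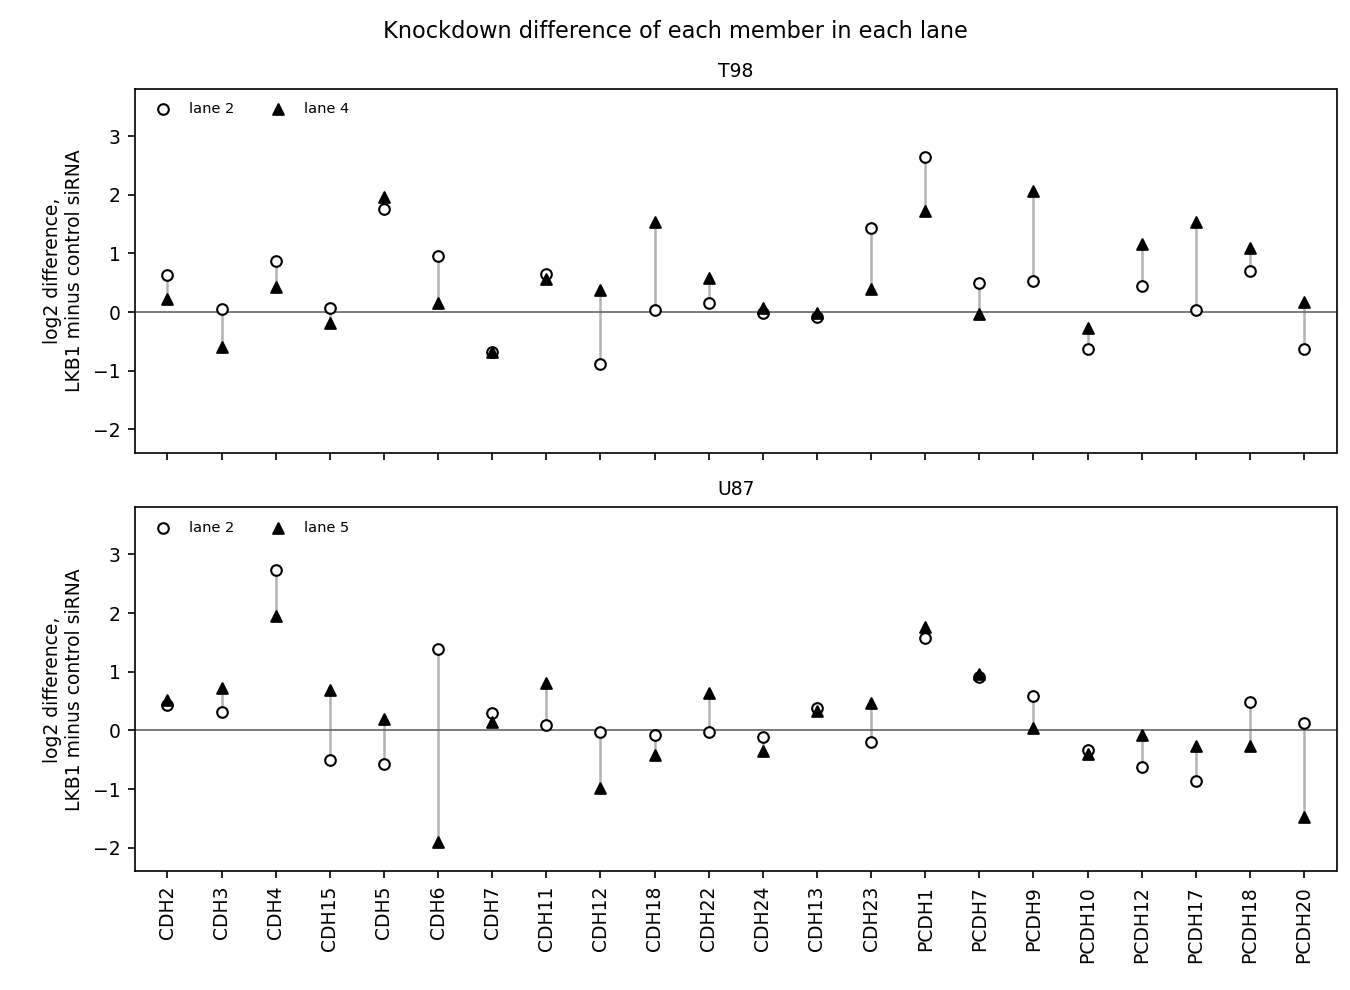
The y axis is the log2 difference between LKB1 and control siRNA on the log2(value + 1) scale for each tested member outside the clusters, with T98 above and U87 below. Circles are lane 2 and triangles lane 4 (T98) or lane 5 (U87); PCDH1 is above 1.5 in both lanes of both lines, and CDH6 in U87 lies on both sides of 0 (1.39 and −1.91).

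The PCDHA cluster (hg19 chr5:140165875-140391929) was barely expressed. Its 15 rows lay between 1.172 and 30.83 in the 8 libraries. All 105 pairs of rows overlap on the genome and all rows end at the same base, so that reads of the constant exons can be counted in every row, and the rows are not independent measurements. PCDHAC2 (NM_018899), which has the exon nearest to the constant exons, lay at 4.392 and 21.96 in T98 control cells and at 15.03 and 30.83 under LKB1 siRNA. In U87 PCDHAC2 lay at 3.292 and 26.87 with control and at 9.745 and 22.24 with LKB1 siRNA. PCDHA1 (NM_031411) lay at 2.244 and 16.25 in T98 control cells and at 15.87 and 21.02 in U87 control cells, and PCDHA2 (NM_018905) at 3.336 and 23.87 and at 5.36 and 16.3. In both lines the lane 2 control library was the lower one for each of the 3. The median knockdown difference of the 15 rows in T98 was 1.88 in lane 2 and 0.13 in lane 4, and none of the rows passed in either line or fit. In the comparison of the lines, PCDHA1 passed as lower in T98 in the lane-term fit alone (−2.07, adjusted p = 0.00931), and no row passed with limma-trend.

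The PCDHB genes (hg19 chr5:140430978-140627801) do not overlap each other, so each row is a measurement of its own, although close copies may share reads. PCDHB5 and PCDHB6 were lower in T98 than in U87. PCDHB5 (NM_015669, chr5:140514799-140517704) lay at 12.78 and 10.42 in T98 control cells and at 96.04 and 76.34 in U87 control cells. The groups did not overlap, and the difference was −2.79 (SE 0.66, adjusted p = 0.0145 with limma-trend), −2.82 in lane 2 and −2.76 between the other lanes. PCDHB6 (NM_018939, chr5:140529838-140532868) lay at 8.552 and 10.45 in T98 and at 200.4 and 81.98 in U87, a difference of −3.63 (SE 0.61, adjusted p = 0.00337). Those were the 2 clustered genes of 52 tested that passed, beside 37.7% of all genes. The PCDHB5 call was lost without either T98 control library or U87 control lane 2 (highest adjusted p 0.0765), and the PCDHB6 call held without any 1 library.

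The 3 PCDHB genes with the highest means gave no call with limma-trend. PCDHB16 (NM_020957) lay at 302.8 and 476.7 in T98 control cells and at 501.4 and 311.1 in U87. The groups overlapped, and the sign turned with the lane (−0.73 and 0.61). PCDHB14 (NM_018934) likewise lay at 215.4 and 258.3 in T98 and at 279.7 and 175.6 in U87 (−0.38 and 0.55). PCDHB7 (NM_018940) lay at 50.21 and 89.33 in T98 and at 485.4 and 142.1 in U87, without overlap, and came close to the threshold at −1.96 (SE 0.67, adjusted p = 0.0535). In lane 2 none of the 15 tested genes was higher in T98, and between the other lanes 7 were. The lane-term fit accordingly called 10 of the 15 lower in T98: PCDHB5 to PCDHB13 and PCDHB16, with differences of −4.27 (PCDHB6) to −0.67 (PCDHB16). Among all genes the same fit called 32.6% lower in T98, and 63.3% in either direction. Summed over the cluster, U87 control cells had 3136 in lane 2 and 1714 in lane 5, and T98 control cells 1180 and 1812. U87 lane 2 was thus the high library, and the other 3 lay closer together. CTCF, one of the factors of promoter choice, differed between the lines by 0.35 with limma-trend (adjusted p = 0.335). In the lane-term fit, at the level of lane 2, the CTCF difference was 0.70 (adjusted p = 0.00857).

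No PCDHB gene passed under LKB1 siRNA in either line or fit. In T98 the summed PCDHB value was 1115 and 1518 against 1180 and 1812 in the controls, and in U87 3144 and 1848 against 3136 and 1714. The T98 sums were lower in both lanes. The median difference of the 15 genes was −0.27 in T98 and −0.01 in U87. In T98, 8 of the 15 were lower in both lanes and 1 was higher in both, beside 34.6% and 38.2% of all genes, and in U87 5 and 4. PCDHB6 came nearest in T98, at 4.573 and 4.65 against 8.552 and 10.45 (−0.90, SE 0.30, adjusted p = 0.0767 in the lane-term fit). PCDHB13, at 53.83 and 101.6 against 88.58 and 142.5, was next (−0.60, SE 0.21, adjusted p = 0.0955).

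**Figure D4:**
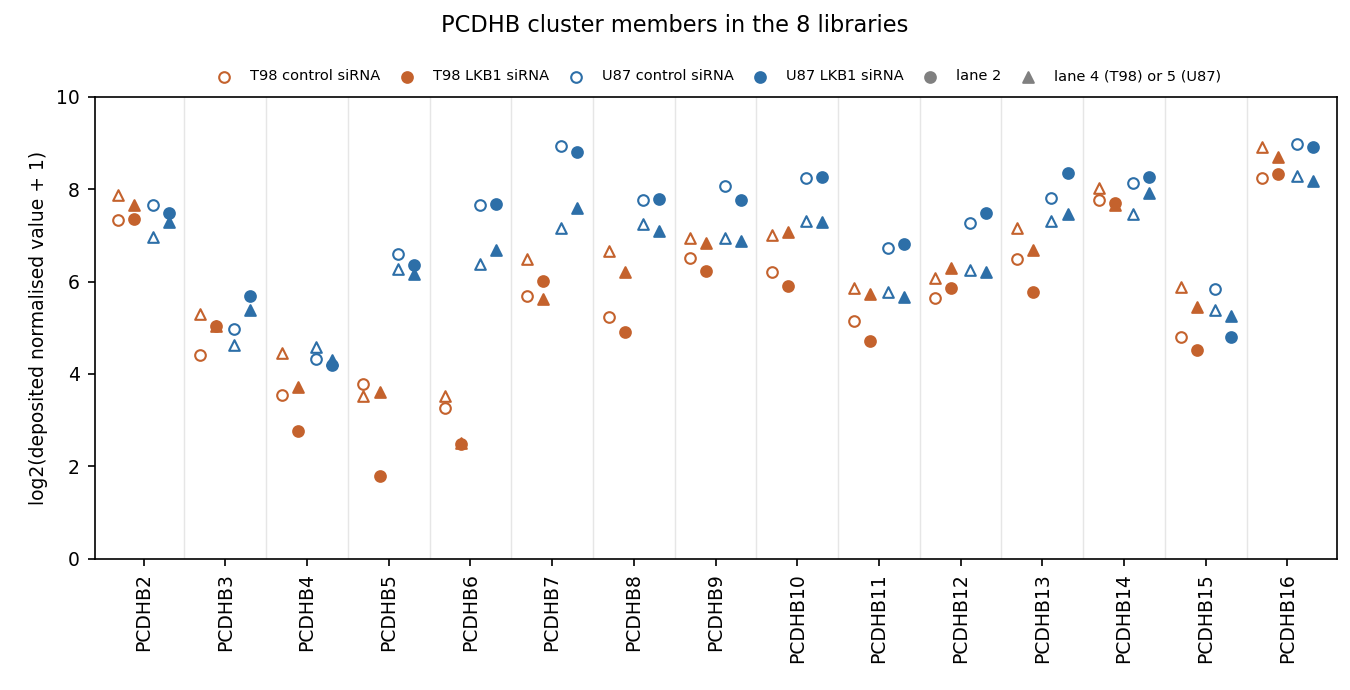
Each point is 1 library, with log2(deposited normalised value + 1) on the y axis for the 15 tested PCDHB genes; PCDHB1, with 0 reads, is left out. Colours and symbols are T98 (orange), U87 (blue), control siRNA (open), LKB1 siRNA (filled), lane 2 (circles) and lanes 4 or 5 (triangles). PCDHB5 to PCDHB8, PCDHB10 and PCDHB13 separate the lines. The U87 lane 2 libraries lie highest for PCDHB5 to PCDHB14 and for PCDHB16.

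The PCDHG cluster (hg19 chr5:140710251-140892548) was the abundant one, and in T98 it rose with the knockdown in the lane-term fit. All 231 pairs of its 22 rows overlap, and the rows end at the shared constant exons. Outside PCDHGC3 the rows lay within 6124 and 2727 in all libraries and were nearly equal within a library, so their 22 calls amount to about 1 measurement. PCDHGA9 (NM_032089), for example, lay at 2791 and 3270 with control siRNA in T98 and at 4715 and 4184 with LKB1 siRNA. In U87 PCDHGA9 lay at 5808 and 3207 with control and at 6064 and 4261 with LKB1 siRNA. The T98 groups did not overlap, and the U87 groups did.

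All 22 PCDHG rows passed as higher in T98 in the lane-term fit, beside 8.48% of all genes. Their differences lay between 0.43 and 0.58, and their adjusted p between 0.0396 and 0.0467, just inside the threshold. Lane 2 gave 0.44 to 0.77 and lane 4 0.36 to 0.42. With limma-trend none passed. In U87 none passed in either fit, with differences of 0.22 to 0.34 (lane-term adjusted p 0.107 to 0.376), although every row was higher in both lanes. The difference between the lines passed for none, and was 0.09 for PCDHGC3 (adjusted p = 0.826) and 0.32 for PCDHGA9 (adjusted p = 0.5). Without either T98 library of lane 2 or any U87 library no PCDHG call remained, and leaving out any 1 of the 8 ended the PCDHGC3 call (adjusted p up to 0.206). Between the lines, the PCDHG rows were lower in T98 in lane 2 (median −1.03) and level between the other lanes (0.03). All 22 passed as lower in the lane-term fit (adjusted p 0.00392 to 0.00896), beside 32.6% of all genes, and none with limma-trend, beside 37.7% in either direction.

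PCDHGC3 (NM_032403, chr5:140855568-140892546) stood above the other rows in every library. PCDHGC3, a C-type isoform found widely in brain, lay at 5113 and 5472 in T98 control cells and at 6950 and 7315 under LKB1 siRNA. In U87 PCDHGC3 lay at 7962 and 4658 with control and at 9395 and 6363 with LKB1 siRNA. The reads of a row beyond those of the lowest PCDHG row are an estimate of what is its own, because shared reads enter all rows alike. For PCDHGC3 this was 46.7% (95% exact binomial interval 45.3% to 48.1%) and 42.5% of its reads in the T98 controls, 33% and 44.1% under LKB1 siRNA, 30% and 33.7% in the U87 controls and 38.8% and 35.1% under LKB1 siRNA. Intervals of this kind cover counting error only.

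PCDHGC3 also held most of the reads beyond the lowest row. It made up 83.8% and 78% of their sum in the T98 controls, 87.4% and 85.4% under LKB1 siRNA, 66.4% and 58.6% in the U87 controls and 71.2% and 59.2% under LKB1 siRNA. All 4 T98 libraries were above all 4 U87 libraries. PCDHGC5 (NM_032407), another C-type isoform, had 0, 2, 8 and 8 reads beyond the lowest row in the T98 libraries and 212, 266, 282 and 670 in those of U87, with no overlap. PCDHGA9, PCDHGA10, PCDHGB1 and PCDHGB2 were the only others among the 4 leading rows of any library apart from PCDHGA1 in T98 control lane 2. None of these exceeded 237 reads.

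The shared level and the reads beyond it did not move alike under LKB1 siRNA. Scaled to the common library size, the lowest PCDHG row of T98 went from 2727 to 4656 in lane 2 and from 3147 to 4092 in lane 4. The reads beyond it went from 2848 to 2624 in lane 2 and from 2981 to 3776 in lane 4. The T98 lane 2 rise was thus in the reads shared by all rows, while the reads that can be told apart were not higher. In U87 the lowest row went from 5574 to 5750 in lane 2 and from 3087 to 4133 in lane 5, and the reads beyond it from 3598 to 5121 and from 2678 to 3768.

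**Figure D5:**
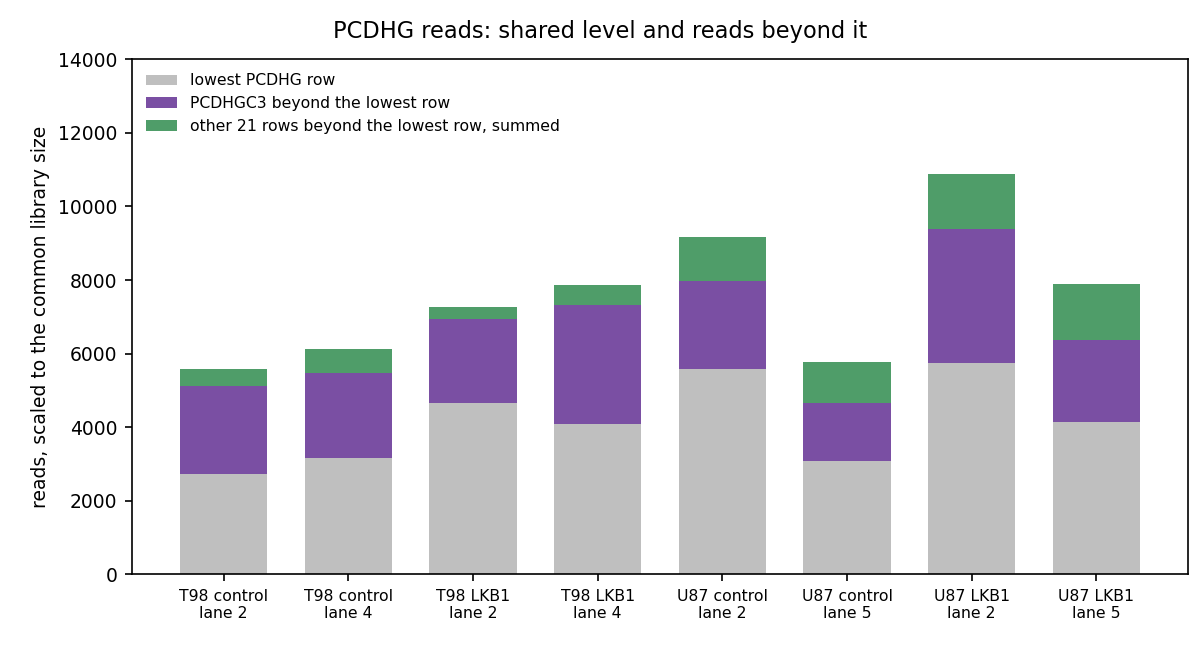
Stacked bars give PCDHG reads per library, scaled to the common library size: the lowest row, which stands for reads shared by all rows (grey), PCDHGC3 beyond it (purple) and the other 21 rows beyond it, summed (green). PCDHGC3 is the larger coloured part in all 8 libraries, and the green part is larger in U87 than in T98.

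Genes that work with cadherins were read from 9 lists (118 genes, of which 99 were tested), which were chosen with earlier results of these data known. With limma-trend none passed under LKB1 siRNA. In the lane-term fit 8 were higher and 5 lower in T98 (13.1%, against 15.8% of all genes), and 5 higher and 4 lower in U87 (9.09%, against 11.2%). The catenins that bind the classical cadherins did not pass. CTNNB1 (beta-catenin) differed by 0.11 in T98 and 0.19 in U87, CTNNA1 (alpha-catenin) by −0.24 and −0.19, and CTNND1 (p120 catenin) by −0.12 and 0.08, with no call in any comparison. VCL (vinculin), which ties alpha-catenin and focal adhesions to actin, lay at 18747 and 14088 with control siRNA in T98 and at 1563 and 4008 with LKB1 siRNA. In U87 VCL lay at 16399 and 17411 against 4120 and 4470. VCL thus was lower in all 4 pairs without overlap (lane-term −2.70, SE 0.34, adjusted p = 0.00654 in T98, and −1.98, SE 0.34, adjusted p = 0.012 in U87), yet it missed the threshold with limma-trend (adjusted p = 0.124 and 0.11).

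Other listed genes passed only in the lane-term fit. In T98 the maintenance DNA methyltransferase DNMT1 rose by 1.26 (adjusted p = 0.00475), the seven-pass cadherin CELSR2 by 1.37 (adjusted p = 0.00733) and the WAVE complex subunit WASF1, which joins protocadherin tails to actin, by 0.78 (adjusted p = 0.014). The shedding protease ADAM17 was lower, at −1.29 (adjusted p = 0.00678), as was the endocytic adaptor NUMB, at −0.83 (adjusted p = 0.0184). In U87 the receptor phosphatase PTPRF rose by 1.05 (adjusted p = 0.00346), the calsyntenin CLSTN2 by 2.09 (adjusted p = 0.0147) and CELSR2 by 1.01 (adjusted p = 0.0149). The cohesin subunit RAD21 (−0.78, adjusted p = 0.0117) and the DNA methyltransferase DNMT3B (−0.97, adjusted p = 0.0118) were lower in U87. DNMT1 and WASF1 also passed as higher in U87 in this fit, and PTPRF as higher in T98.

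Between the control cells of the lines, 16 listed genes were higher and 18 lower in T98 with limma-trend (34.3%, against 37.7% of all genes). CLSTN2 was the most distant of those higher in T98, at 4307 and 6294 against 10.69 and 38.31 in U87 (7.92, adjusted p = 0.000147). The repressors of CDH1 transcription SNAI1 (2.53, adjusted p = 0.000333) and TWIST2 (2.72, adjusted p = 0.000841) were higher in T98 too. The kinase FYN, which binds protocadherin tails, lay at 94.97 and 150.1 in T98 and at 6839 and 4415 in U87 (−5.51, adjusted p = 7.89e-05). CYFIP2 of the WAVE complex (−5.31, adjusted p = 0.000121) and the membrane protease MMP14 (−2.70, adjusted p = 0.000518) were lower in T98 as well. Of the 10 listed repressors, 5 were higher in T98 and 2 lower (ZEB2 and KLF8). ZEB2 lay at 428.5 and 415.8 in T98 control cells and at 3637 and 3525 in U87 control cells. Of the 13 protocadherin partners none was higher and 6 were lower. DSG2, the 1 desmosomal cadherin of 7 that was tested, was lower in T98 (−7.72, SE 1.15, adjusted p = 0.00209).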

How the data were processed

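The members and the gene lists were chosen with earlier results of these data known. Per the submitters' processing notes, the authors used TopHat2 2.0.8b, hg19/GRCh37 and edgeR. No source used here names the read counter or the annotation. The deposited signal is 1 normalised value per transcript and library. These values equal edgeR pseudo-counts at a common dispersion of 0.06803, and inverting that function gave whole reads (within 0.05 read) for 100.0% of values. A symbol kept its transcript with the highest mean. The test was limma-trend, from limma 3.58.1 in R 4.3.3, over 4 group means (two-sided) with 4 residual degrees of freedom, and Benjamini-Hochberg adjustment. The lane-term fit has 2 residual degrees of freedom. Libraries were paired by the lane in the column headers: gene by gene, the lane difference of a group correlated at 0.72 (T98) and 0.81 (U87) with that of the other siRNA group of its line. Without a library, that fit takes its spread wholly from the line left intact. The smallest exact permutation p of 2 against 2 libraries is 0.333, so no such test was made. Added settings, chosen after seeing the data, were edgeR (4.0.16) with a lane term and the lane-term fit without each library.

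The rule for names took members past the threshold in any comparison in either fit, those outside the clusters with a group mean of at least 500, CDH1, CDH2, CDH3, CDH5, CDH11 and CDH13, and the 3 with the highest mean in each cluster. From the gene lists it took up to 3 risen and 3 fallen genes per comparison with the smallest adjusted p, CTNNB1, CTNNA1 and CTNND1. DSG2, CTCF, ZEB2, KLF8, CDH7, CDH12, CDH22 and the markers were named in addition, after their values were seen.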

Additional observations from a re-analysis of the deposited data

How the results depend on the processing

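For the members outside the clusters, pseudocount 5, other filters, median-ratio scaling, summed transcripts, edgeR and DESeq2 kept every count within 1.5 times, except 1 call with DESeq2 in U87. The replicate block (lane term for each line) gave 3 calls in T98 and 2 in U87 in place of 0, and 22 clustered calls in T98 in place of 0. With edgeR and the block these were 3, 3 and 22. For the clustered members between the lines, the block gave 33 calls in limma and 33 in edgeR in place of 2. Between the lines the block compares at the level of lane 2, whereas limma-trend averages both lanes, so the 2 do not estimate the same difference. In all, 28 alternative counts moved by over 1.5 times and 156 did not. The difference between the lines (T98 minus U87) reversed for CDH2 to 0.84 with the block and 0.84 with edgeR and the block, and for CDH4 to 2.22 and 1.999.

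Leaving out each library gave, with limma-trend, 8 to 12 calls between the lines outside the clusters and 1 to 23 within them, and 0 under LKB1 siRNA. With the block the ranges were 11 to 17 and 4 to 34 between the lines, 0 to 3 and 0 to 23 (clustered) in T98, and 0 to 4 and 0 in U87. With limma-trend such omissions turned the sign of PCDH18 in T98 (−0.31 to 2.09) and, between the lines, of CDH2 (−1.84 to 0.76), CDH4 (−2.90 to 1.53), PCDHB16 (−0.40 to 0.29) and PCDHGC3 (−0.59 to 0.18). With the block CDH2 ranged from 0.74 to 1.15 and CDH4 from 1.63 to 2.56, and the lowest values of PCDHB16 and PCDHGC3 were −0.74 and −0.63.

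Over all genes, limma-trend called 4 in T98 and 8 in U87 under LKB1 siRNA, DESeq2 350 and 491, edgeR 3 and 0, median-ratio scaling 4 and 0, and the block 2258 and 1599. Between the lines the block called 9037 genes in place of 5386. Depth limits the genes with few reads, among them CDH5 in T98 (at most 11 reads) and the PCDHA rows (at most 33 reads). The cause of these differences was not tested.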

Other observations

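CDH7, a type II cadherin named here after its values were seen, was lower under LKB1 siRNA in both lanes of T98 and higher in both lanes of U87. CDH7 lay at 85.36 and 125.4 with control siRNA in T98 and at 52.6 and 78.28 with LKB1 siRNA (lane differences −0.69 and −0.67). In U87 CDH7 lay at 89.87 and 192.9 against 110.7 and 213 (0.30 and 0.14). Neither effect passed (lane-term adjusted p = 0.0653 in T98 and 0.55 in U87), nor did their difference (−0.90, SE 0.30, adjusted p = 0.239).

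Several members, named here after their values were seen, differed widely between the lanes of a group. The log2 difference of lane 5 over lane 2 in the U87 controls was 5.44 for PCDH10, 4.43 for CDH4, −3.27 for CDH3 and −3.07 for CDH6, and under LKB1 siRNA it was 5.37, 3.63, −2.86 and −6.37. In T98, lane 4 over lane 2 gave −2.60 for CDH2, −2.57 for CDH13 and 2.52 for CDH15 in the controls, and −3.02, −2.51 and 2.26 under LKB1 siRNA. The sign was the same with both siRNAs for each of these 7 genes. Whether the lanes also differ in culture, extraction or library is not given in the sources used here, and the part of these in the result was not tested.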
